A study of Mus musculus with 8 samples.

Results

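The 9 genes of the AP-1 family measured here are Fos, Fosb, Fosl1, Fosl2, Jun, Junb, Jund, Atf3 and Batf3. They were chosen by name, and each is represented by the transcript cluster (the probes that the array pools for 1 locus) that carries its symbol alone. All 9 have 1 such cluster, so no choice among clusters was needed. They are 9 of 19938 genes with a single symbol, on an array of 35556 transcript clusters. Neuro2a, a mouse neuroblastoma line from the AJ strain, was profiled on 4 arrays of anchorage dependent (AD) cells, which grow attached in DMEM with 10% fetal bovine serum, and on 4 arrays of anchorage independent (AI) tumorspheres, which grow detached in NeuroCult neural stem cell medium to which heparin (2 µg/ml), EGF (20 ng/ml) and bFGF (10 ng/ml) were added. No gene was altered in either group. In bulk RNA of this kind, fewer cells of a type and less RNA per cell cannot be told apart. Attachment, serum and added growth factors change together between the phenotypes and cannot be told apart. The labels call the replicates biological and the methods describe replicate hybridizations, so the spread between arrays may be partly technical.

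AP-1 is a dimer of basic leucine zipper proteins that binds the TPA response element and, in some pairings, the cyclic AMP response element (CRE). Jun proteins pair with each other or with Fos proteins, whereas Fos proteins need a Jun partner. Several of the genes are immediate early genes, which serum, growth factors, stress or depolarization switch on within minutes and which fall again soon after. Atf3 and Batf3 belong to the same superfamily and pair with Jun proteins; Atf3 is induced by many kinds of stress and is a marker of injured neurons. JNK, named for its action on Jun, phosphorylates the Jun protein, which can then raise transcription of its own gene.

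Values are the log2 signals that the authors deposited after GCRMA background correction and normalization. Array medians ran from 5.82 to 5.92 log2 for AD and from 5.92 to 5.99 log2 for AI. All 11 measured markers of neuroblastoma and sympathetic neurons lay above the median of their array on all 8 arrays. Their summed signal ran from 13.48 to 13.60 log2 on AD and from 13.33 to 13.43 log2 on AI arrays. Of the 11, 4 were called, all of them higher in AD cells, by 1.52-fold to 8.03-fold, where 2.02% of all genes were called higher in AD cells. None of 5 macrophage and none of 6 fibroblast markers lay above the median on all 8 arrays. Of 4 endothelial markers only Pecam1 did, with no call in these 3 lists. Summed in the same way, the macrophage markers ran from 7.30 to 7.46 log2 on AD and from 7.39 to 7.45 log2 on AI arrays, the fibroblast markers from 8.03 to 8.14 and from 8.02 to 8.07 log2, and the endothelial markers from 7.72 to 8.0 and from 7.86 to 7.98 log2. AD replicate 4 often stood nearer to the AI arrays: among the 478 genes called higher in AI cells, it was the highest AD array for 267 (55.9%). Values without it are given for Atf3 and Fosl1 and, at the end, for the other called genes in which it was the highest AD array.

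Atf3 and Jun were higher in AI cells, and no member of the family was called higher in AD cells. A gene is called when its adjusted p in limma (Benjamini-Hochberg over all transcript clusters) is under 0.05 and the phenotypes differ at least 1.5-fold. By that rule 2 of the 9 genes were called higher in AI cells, where 2.4% of the genes with a single symbol were, and none was called higher in AD cells, where 2.02% were. Over all transcript clusters, named or not, 3.93% were called in either direction, of which 64.5% were higher in AI cells (47% after median centring). With the fold left aside, Atf3, Jun, Jund and Fosb, 4 of the 9, passed on the adjusted p, each toward AI cells, where 10.7% of all genes did so toward AI cells and 11% toward AD cells. Of the 9, 6 lay above the median of their own array on all 8 arrays, and among the 10147 genes as bright as this 3.67% were called higher in AI cells. AD and AI arrays were fully separate for 5 of the 9 (those 4 and Fosl2), against 26.9% of all genes. The median log2 ratio of AD over AI cells was -0.25 for the 9 and 0.01 for all genes.

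**Figure D1:**
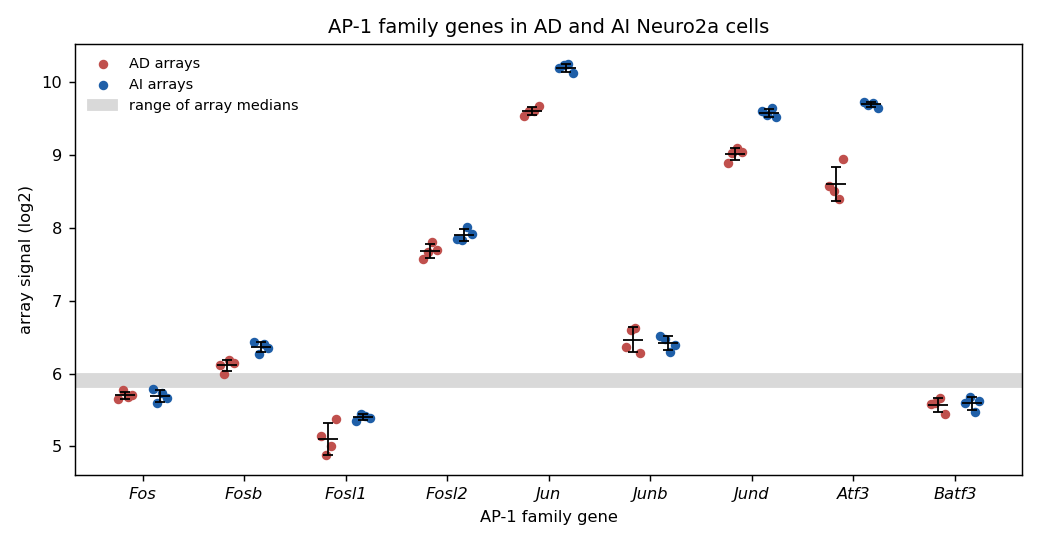
Array signal (log2, vertical axis) of the 9 AP-1 family genes in AD (red) and AI (blue) cells. Dots are single arrays (4 AD and 4 AI), black bars are means with SD, and the grey band is the range of the array medians, 5.82 to 5.99 log2. The AI arrays lie clear of the AD arrays for Jun, Jund and Atf3, while Fos, Fosl1 and Batf3 lie below the band.

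Atf3, a stress-induced factor that forms dimers with Jun proteins, had the largest difference of the family. Its signal was 8.58, 8.50, 8.40 and 8.94 log2 in AD replicates 1 to 4 and 9.73, 9.69, 9.72 and 9.65 log2 in AI replicates 1 to 4. The AI arrays all lay above the AD arrays, with a gap of 0.71 between the nearest arrays, and AD replicate 4 was the nearest of the AD arrays. AD cells averaged 8.60 ± 0.23 log2 and AI cells 9.70 ± 0.04 log2 (mean ± SD, n = 4 each). This is 2.13-fold higher in AI cells (95% confidence interval 1.81 to 2.51), a difference (AD minus AI) of -1.09 on the log2 scale (standard error 0.10, limma adjusted p = 0.000182). Without AD replicate 4 the log2 ratio was -1.20, and Atf3 was called when any single array was left out. The exact two-sided permutation test gave p = 0.0286, which is the smallest p that 4 arrays against 4 allow.

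RefSeq places the 250 bases before the annotated start of Atf3 at chr1:191183334-191183583 (GRCm38.p6, minus strand). They are shown because Atf3 has the largest change of the family. Capitals mark TTACGTCA, a CRE-like sequence that lies 10 to 3 bases before the start and contains the core TGACG on the opposite strand.
Atf3: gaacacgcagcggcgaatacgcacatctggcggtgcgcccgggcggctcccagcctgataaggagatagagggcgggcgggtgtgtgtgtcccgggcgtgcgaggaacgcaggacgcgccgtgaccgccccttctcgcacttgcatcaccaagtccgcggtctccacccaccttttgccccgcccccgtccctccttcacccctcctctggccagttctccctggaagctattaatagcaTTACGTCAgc

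Jun, the c-Jun gene, was also higher in AI cells. Its signal was 9.53, 9.60, 9.61 and 9.67 log2 in AD replicates 1 to 4 and 10.19, 10.23, 10.25 and 10.12 log2 in AI replicates 1 to 4. The phenotypes were parted by 0.45 between their nearest arrays, and neither group held an array far from the others. AD cells averaged 9.60 ± 0.06 log2 and AI cells 10.20 ± 0.06 log2 (mean ± SD, n = 4 each). The ratio of 1.51-fold (95% confidence interval 1.38 to 1.65) lay just past the fold threshold, at a log2 ratio of -0.59 (standard error 0.06, limma adjusted p = 0.000159). The call ended after median centring of the arrays (log2 ratio -0.52) and when AD replicate 1 (-0.57), AI replicate 2 (-0.58) or AI replicate 3 (-0.58) was left out, in each case because the ratio fell below 1.5-fold.

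The window of the same length before the start of Jun is at chr4:95052223-95052472 (GRCm38.p6, minus strand, RefSeq). It is shown because Jun is the other gene called. Capitals mark TGACATCA, a sequence like the sites through which Jun protein is known to act on its own gene, 45 to 38 bases before the start.
Jun: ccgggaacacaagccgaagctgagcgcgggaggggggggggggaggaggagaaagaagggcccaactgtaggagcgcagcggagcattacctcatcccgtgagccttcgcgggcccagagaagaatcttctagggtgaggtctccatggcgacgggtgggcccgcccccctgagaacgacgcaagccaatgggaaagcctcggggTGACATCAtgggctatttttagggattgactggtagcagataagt

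Jund, a Jun family gene whose transcript is present in most resting cells, had nearly the same difference as Jun but was not called. Its signal was 8.89, 9.03, 9.09 and 9.04 log2 in AD replicates 1 to 4 and 9.60, 9.55, 9.64 and 9.52 log2 in AI replicates 1 to 4. All AI arrays lay above all AD arrays, by 0.43 between the nearest. The means were 9.01 ± 0.09 and 9.58 ± 0.05 log2 (SD, n = 4 each), which is 1.48-fold higher in AI cells (95% confidence interval 1.35 to 1.62), at a log2 ratio of -0.56 (standard error 0.06, limma adjusted p = 0.000325). Jun and Jund thus fell on either side of the 1.5-fold threshold with confidence intervals that overlap. Jund passed it after quantile normalization (log2 ratio -0.60) and without AD replicate 3 (-0.59).

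Junb, which can oppose c-Jun at some promoters, showed no difference beyond the spread of its arrays. Its signal was 6.37, 6.60, 6.62 and 6.28 log2 in AD replicates 1 to 4 and 6.51, 6.47, 6.29 and 6.39 log2 in AI replicates 1 to 4. The groups overlapped, with the 2 highest arrays and the lowest array all in AD cells. The log2 ratio was 0.05 (95% confidence interval -0.15 to 0.25, limma adjusted p = 0.773). A 1.5-fold difference in array signal lies outside that interval in either direction, and the fold in RNA was not measured another way.

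**Figure D2:**
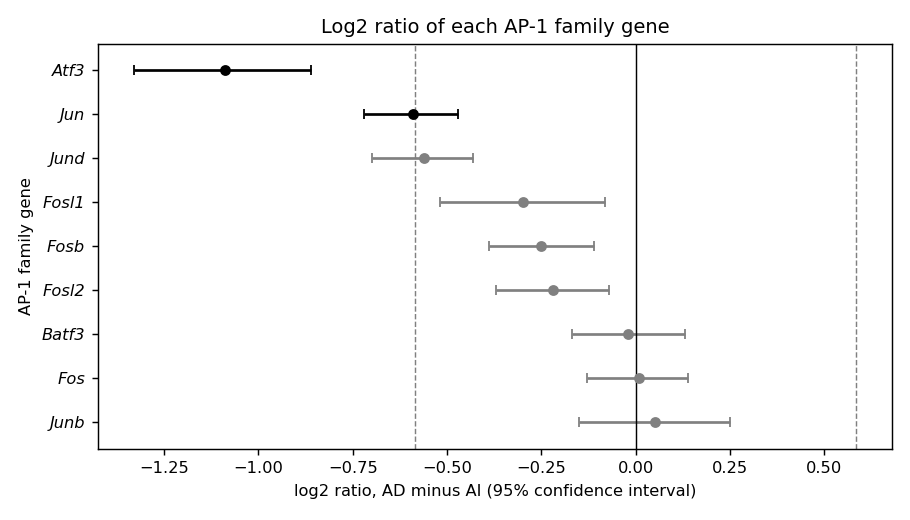
Log2 ratio (AD minus AI, horizontal axis) of each of the 9 genes with its 95% confidence interval from limma, ordered by the ratio. Black marks the 2 called genes, grey the others, and the dashed lines are 1.5-fold in either direction. Atf3 lies past the line as a whole, Jun and Jund straddle it, and Fos, Junb and Batf3 lie around 0.

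Fos, the classic serum-induced partner of Jun, showed no difference beyond the spread of its arrays. Its signal was 5.65, 5.77, 5.68 and 5.71 log2 in AD replicates 1 to 4 and 5.79, 5.60, 5.73 and 5.66 log2 in AI replicates 1 to 4. Each of these values was below the median of its own array, and the groups overlapped fully. The log2 ratio was 0.01 (95% confidence interval -0.13 to 0.14, limma adjusted p = 0.960). The interval is that of the array signal, and the fold in RNA at so low a signal was not measured another way. The direction of so small a value turned when AD replicate 2, AI replicate 2 or AI replicate 4 was left out and with array weights (-0.02).

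The window before the start of Fos, at chr12:85473640-85473889 (GRCm38.p6, plus strand, RefSeq), is shown beside those of Jun and Atf3 because Fos was not called and is the best known member. Capitals mark a pair of CRE cores, TGACG, which begin 129 and 66 bases before the start, and a TATA box, TATAAA, which begins 33 bases before it.
Fos: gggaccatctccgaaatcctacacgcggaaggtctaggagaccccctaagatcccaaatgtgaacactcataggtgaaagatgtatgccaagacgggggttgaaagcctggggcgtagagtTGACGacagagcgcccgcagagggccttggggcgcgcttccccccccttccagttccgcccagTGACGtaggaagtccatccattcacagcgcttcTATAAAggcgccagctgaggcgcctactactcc

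RefSeq windows were found for 8 of the 9 genes, all but Fosl1. Their letters were searched on both strands in the 250 bases before the start, and shares are given over all 32851 windows of that length in the table. The whole CRE, TGACGTCA, is in none of the 8 windows and in 1.55% of all windows. The TPA response element, TGACTCA, is in none of the 8 and in 4.46% of all. The core TGACG, which the whole CRE contains, is in the windows of Fos, Fosb, Junb and Atf3 and in 17.8% of all, and TATAAA is in that of Fos and in 12.4% of all. TGACATCA is in the window of Jun and in 2.93% of all, and TTACGTCA in that of Atf3 and in 0.447% of all. The last 2 sequences were picked after the windows had been read, so their presence in Jun and Atf3 is a description only. None of the 6 is in the windows of Fosl2, Jund or Batf3.

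Fosb, a Fos gene with long-lived products in stimulated neurons, differed little. Its signal was 6.12, 6.0, 6.18 and 6.15 log2 in AD replicates 1 to 4 and 6.43, 6.27, 6.40 and 6.35 log2 in AI replicates 1 to 4. The AI arrays all lay above the AD arrays, but by only 0.09. The log2 ratio was -0.25 (95% confidence interval -0.39 to -0.11, limma adjusted p = 0.0211), a 1.19-fold difference that is under the fold threshold. Its adjusted p rose above the threshold after quantile normalization (log2 ratio -0.16, adjusted p = 0.0683) and after median centring (log2 ratio -0.17, adjusted p = 0.0718), and it lay between 0.0215 and 0.0644 when single arrays were left out.

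Fosl1 and Fosl2, the Fra genes, which unlike Fos lack a strong transactivation domain, were not called. Fosl2 had 7.57, 7.67, 7.80 and 7.69 log2 in AD replicates 1 to 4 and 7.85, 7.83, 8.01 and 7.92 log2 in AI replicates 1 to 4. Its arrays were parted by 0.02, with a log2 ratio of -0.22 (95% confidence interval -0.37 to -0.07, limma adjusted p = 0.0525). The adjusted p of Fosl2 fell under 0.05 with dim clusters left out (limma adjusted p = 0.0352), with 1 cluster per gene (limma adjusted p = 0.0243) and without AD replicate 3 (limma adjusted p = 0.0417), and reached 0.17 after median centring. Fosl1 had 5.15, 4.88, 5.00 and 5.38 log2 in AD replicates 1 to 4 and 5.35, 5.45, 5.42 and 5.39 log2 in AI replicates 1 to 4. All 8 values of Fosl1 were below the median of their array, and AD replicate 4 was within the range of the AI arrays while the other 3 AD arrays were below it. Its log2 ratio was -0.30 (95% confidence interval -0.52 to -0.08, limma adjusted p = 0.0647) with all arrays. It passed on the adjusted p without AD replicate 4 (log2 ratio -0.39, limma adjusted p = 0.0053), with array weights (limma adjusted p = 0.0102), after quantile normalization (limma adjusted p = 0.0372) and with 1 cluster per gene (limma adjusted p = 0.0211), and in the other alternatives in which it was tested it did not.

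Batf3, a small partner of Jun proteins known from dendritic cells, had 5.58, 5.60, 5.66 and 5.44 log2 in AD replicates 1 to 4 and 5.59, 5.68, 5.47 and 5.62 log2 in AI replicates 1 to 4. Like Fos and Fosl1 it was below the median on all 8 arrays, and the groups overlapped (log2 ratio -0.02, 95% confidence interval -0.17 to 0.13, limma adjusted p = 0.899). Its direction turned after quantile normalization (0.03), after median centring (0.06), with array weights (0.01) and without AD replicate 4 (0.03) or AI replicate 2 (0.01).

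The signal profiles nearest to those of the called genes were found among all genes with a single symbol. Likeness was the root mean square difference over the 8 arrays between profiles centred on their own mean. For Jun the nearest were Zfp704 (0.026 log2), Pcx (0.027 log2) and Astn1 (0.034 log2), with log2 ratios of -0.60, -0.55 and -0.59. For Atf3 they were Got1l1 (0.062 log2), Fkbp1b (0.083 log2) and Prom1 (0.086 log2), with log2 ratios of -1.08, -1.19 and -1.06. These values describe 8 arrays that fall into 2 groups, so any gene with a like difference and spread comes near.

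The list of zipper partners holds 14 other measured genes of the leucine zipper superfamily, whose proteins pair with Fos or Jun or bind their sites. Of these genes, Maff was higher in AI cells and none was higher in AD cells. Maff, a small Maf gene that is also an immediate early gene, had 7.28, 7.34, 7.29 and 7.23 log2 in AD replicates 1 to 4 and 8.02, 7.93, 7.90 and 7.76 log2 in AI replicates 1 to 4. The groups did not overlap, and the difference was 1.54-fold (log2 ratio -0.62, standard error 0.06, limma adjusted p = 0.000282). The call of Maff stands against 2.4% of all genes called higher in AI cells. At any fold, 2 of the 14 passed, both of them toward AI cells, where 10.7% of all genes passed toward AI cells. The other was Jdp2, a repressor that binds Jun, with a log2 ratio of -0.39. Atf2 and Atf4, which also pair with Jun proteins, had 0.03 and -0.07. Jdp2, Atf2 and Atf4 were picked after their values were seen. Maff fell below 1.5-fold after median centring (log2 ratio -0.54) and without AI replicate 1 (-0.58), which left no gene of this list called. Over the 14 the log2 ratios had a median of -0.01.

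Of 22 measured genes of the MAP kinases that act on AP-1, none was called at 1.5-fold. At any fold, 6 of the 22 passed toward AI cells and 3 toward AD cells in limma, where 10.7% and 11% of all genes did. The lowest adjusted p was that of Mapk8ip2, a scaffold of the JNK pathway, with 8.61 ± 0.11 log2 (AD) and 9.14 ± 0.05 log2 (AI; mean ± SD, n = 4 each; log2 ratio -0.53, limma adjusted p = 0.000757). Its sister scaffolds Mapk8ip1 and Mapk8ip3 were among the 6, with log2 ratios of -0.31 and -0.19, whereas the JNK genes Mapk8 and Mapk9 were among the 3 on the other side, with 0.39 and 0.21, and the neuronal JNK gene Mapk10 had 0.08 (limma adjusted p = 0.331). The choice of these 5 was made with their values known. The array measures transcripts and holds no measure of kinase activity.

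Of 11 measured genes of phosphatases that switch MAP kinases off, Dusp10 and Dusp8 were higher in AI cells and Dusp2 in AD cells. The products of Dusp10 and Dusp8 act on JNK and p38 kinases, and that of Dusp2 is a nuclear phosphatase. Dusp10 had 8.56, 8.40, 8.57 and 8.73 log2 in AD replicates 1 to 4 and 9.48, 9.55, 9.58 and 9.47 log2 in AI replicates 1 to 4, a 1.94-fold difference (log2 ratio -0.95, standard error 0.07, limma adjusted p = 5.65e-05). Dusp8 had a log2 ratio of -0.65 (standard error 0.08), which was under 1.5-fold after median centring (-0.57). Dusp2 had a log2 ratio of 0.66 (standard error 0.06), and its AI mean of 5.34 log2 lay below the median of every array. These are 2 of the 11 called higher in AI cells and 1 in AD cells, against 2.4% and 2.02% of all genes. At any fold, 5 of the 11 passed toward AI cells and 1 toward AD cells, against 10.7% and 11% of all genes, and the median log2 ratio was -0.10.

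None of 13 measured genes of factors that act on the promoters of Fos and Jun was called. Mef2a, a factor that acts on the Jun promoter, had the lowest adjusted p, with 10.71 ± 0.06 log2 (AD) and 11.06 ± 0.03 log2 (AI; mean ± SD, n = 4 each; log2 ratio -0.36, limma adjusted p = 0.00172), and its AD replicate 2, at 10.61 log2, lay below the other AD arrays at 10.73 to 10.74 log2. At any fold, 3 of the 13 passed toward AI cells and 1 toward AD cells, where 10.7% and 11% of all genes did. Srf, which binds the serum response element of Fos, showed 0.26 (limma adjusted p = 0.0579) and Creb1, which binds CREs, had -0.07; both were picked after their values were seen. Of 9 genes of AP-1 turnover and cofactors, Trib2, a pseudokinase that guides substrates to the ubiquitin ligase Cop1, was higher in AI cells (mean ± SD 9.51 ± 0.05 log2 on 4 AD and 10.13 ± 0.02 log2 on 4 AI arrays; log2 ratio -0.62, limma adjusted p = 6.56e-05), and -0.55 after median centring left it under 1.5-fold. None of the 9 was called higher in AD cells, and the call of Trib2 stands against 2.4% of all genes called higher in AI cells. At any fold, 1 of the 9 passed toward AI and 2 toward AD cells, against 10.7% and 11% of all genes. The median log2 ratio was -0.07 for the promoter factors and 0.01 for the turnover and cofactor genes.

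Of 28 measured genes known as AP-1 targets, Mmp9 was called higher in AI cells, Hbegf higher in AD cells, and the other 26 were not called. At any fold, 6 of the 28 passed toward AI cells and 2 toward AD cells, where 10.7% and 11% of all genes did. Over all 28 the median log2 ratio was 0.00. The filter on dim clusters (mean signal under the 40th percentile) kept only 16 of the 28, with 2 called. Low signal limits what the ratios of the other targets can show, so the median over the 28 rests partly on dim genes. The matrix protease gene Mmp9 was higher in AI cells, with 5.53, 5.73, 5.69 and 6.0 log2 in AD replicates 1 to 4 and 6.82, 6.88, 6.69 and 6.66 log2 in AI replicates 1 to 4, a 2.03-fold difference (log2 ratio -1.02, standard error 0.10, limma adjusted p = 0.000194). Of its AD values, 3 were below the median of their own array. Hbegf, a membrane-bound ligand of the EGF receptor, was higher in AD cells (mean ± SD 7.33 ± 0.17 log2 on 4 AD and 6.50 ± 0.09 log2 on 4 AI arrays), 1.77-fold. Ccnd1, the cyclin D gene through which AP-1 acts on the cell cycle, averaged 11.19 log2 on AD and 11.36 log2 on AI arrays (log2 ratio -0.17, limma adjusted p = 0.0454), and Vim, the intermediate filament gene, had 11.81 log2 in both; both genes were picked after their values were seen.

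**Figure D3:**
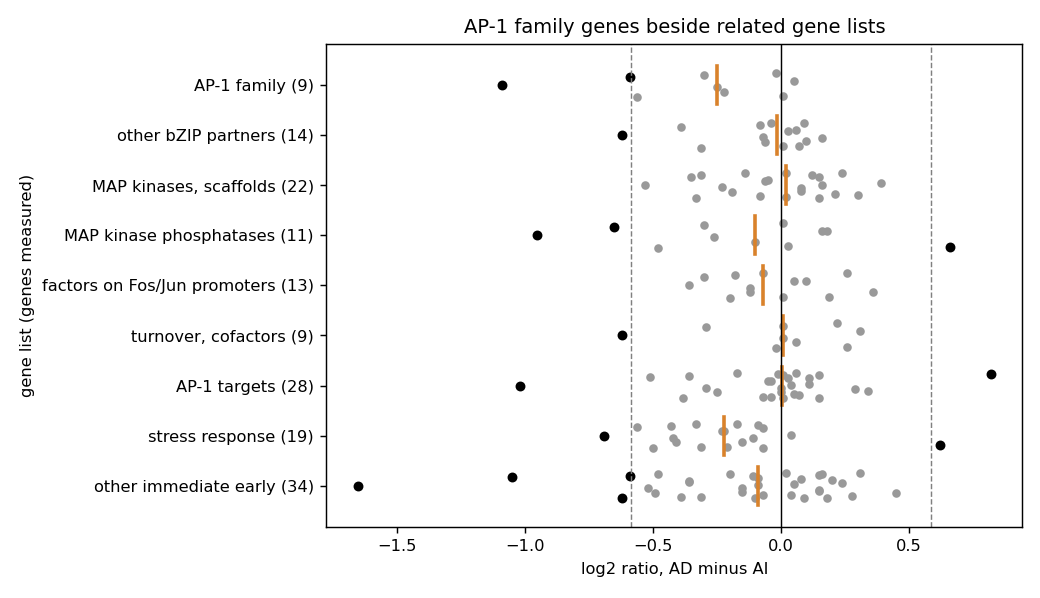
Log2 ratio (AD minus AI, horizontal axis) of every measured gene of the AP-1 family and of 8 related lists (vertical axis, genes measured in parentheses). Each dot is a gene, black where called and grey otherwise, orange bars are medians and the dashed lines are 1.5-fold in either direction; vertical scatter within a list has no meaning. The family's median is -0.25, that of the stress response list -0.22 and that of the AP-1 targets 0.00. The filter on dim clusters kept 8 of the 9 AP-1 genes and 16 of the 28 targets, so the targets' median rests partly on dim genes.

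Of 19 measured genes of the stress response in which Atf3 takes part, Trib3 was called higher in AI cells, Gadd45b was called higher in AD cells, and the remaining 17 were not called. Trib3, a pseudokinase induced through Atf4 and Ddit3, was higher in AI cells, with 8.72, 8.86, 8.83 and 9.18 log2 in AD replicates 1 to 4 and 9.54, 9.64, 9.68 and 9.48 log2 in AI replicates 1 to 4 (log2 ratio -0.69, standard error 0.10, limma adjusted p = 0.00150). Gadd45b, a stress sensor, was higher in AD cells (mean ± SD 7.65 ± 0.09 log2 on 4 AD and 7.03 ± 0.06 log2 on 4 AI arrays; log2 ratio 0.62, limma adjusted p = 0.000222). At any fold, 9 of the 19 passed toward AI cells, where 10.7% of all genes did, and 1 toward AD cells, where 11% did. The list's median log2 ratio was -0.22, where all genes had 0.01. Atf4 and Ddit3, factors upstream and alongside Atf3, stand on this list and on that of zipper partners. Ddit3, which was picked after its value was seen, had -0.31 (limma adjusted p = 0.0964).

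Among 34 other measured immediate early genes, Ccn1, Btg2, Klf4 and Maff were higher in AI cells, and none was higher in AD cells. The 4 stand against 2.4% of all genes. At any fold, 10 of the 34 passed toward AI cells and 2 toward AD cells, where 10.7% and 11% of all genes did. Ccn1, a matricellular protein gene, had 6.35, 6.56, 6.46 and 6.76 log2 in AD replicates 1 to 4 and 8.0, 8.28, 8.39 and 8.06 log2 in AI replicates 1 to 4, a 3.14-fold difference (log2 ratio -1.65, standard error 0.11, limma adjusted p = 2.56e-05). Btg2, an antiproliferative gene, was 2.07-fold higher in AI cells (mean ± SD 7.13 ± 0.15 log2 on 4 AD and 8.18 ± 0.06 log2 on 4 AI arrays). The remaining 2 were Maff, described above, and the zinc finger gene Klf4 with a log2 ratio of -0.59, which was picked after its value was seen and was called in only 3 of the 8 fits that left out single arrays. Egr1 and Nr4a1, which growth factors induce together with Fos, had 0.15 each (adjusted p = 0.112 and limma adjusted p = 0.179) at signals well above the array medians, 7.98 and 7.88 log2 in AD cells; these genes were picked after their values were seen. The median log2 ratio was -0.09. After median centring, and also without AI replicate 1, 2 of the 34 were called in place of 4.

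AD replicate 4 was the highest AD array for 8 of the 11 genes called higher in AI cells in the 9 lists, namely Atf3, Jun, Dusp10, Dusp8, Trib3, Mmp9, Ccn1 and Btg2. Without that array the log2 ratios were -1.20 for Atf3, -0.62 for Jun, -1.01 for Dusp10 and -0.71 for Dusp8. They were -0.78 for Trib3, -1.11 for Mmp9, -1.73 for Ccn1 and -1.11 for Btg2, and all 8 were called. Leaving out the highest AD value of a gene that is higher in AI cells must widen the difference. The wider ratios of these 8 therefore carry no further information.

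**Figure D4:**
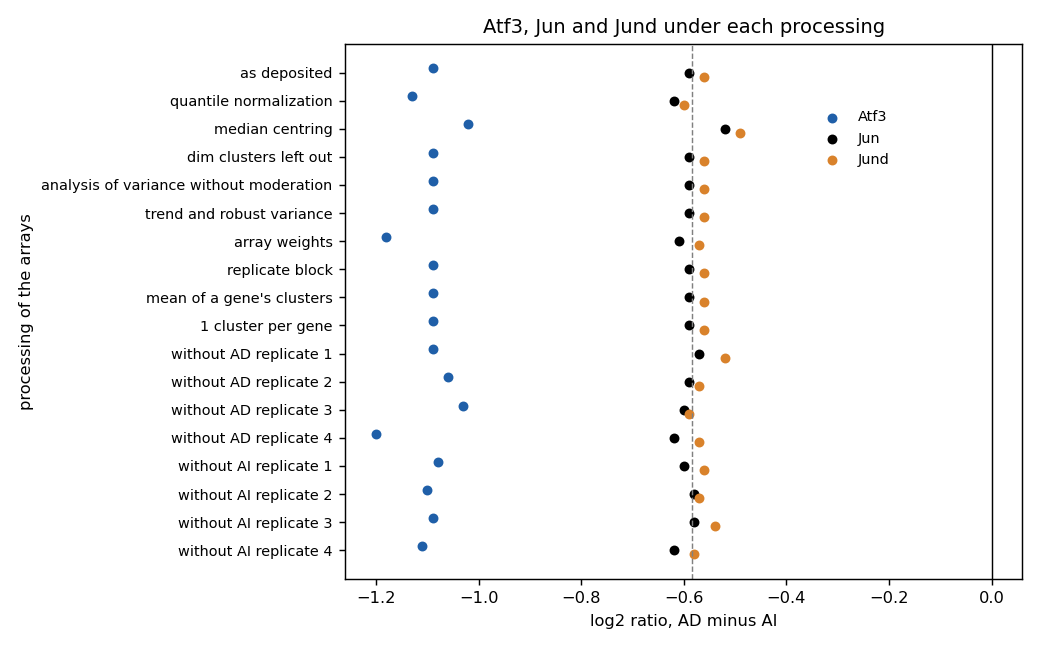
Log2 ratio (AD minus AI, horizontal axis) of Atf3, Jun and Jund as deposited, under each alternative processing and with each array left out (vertical axis). Each dot is 1 fit and the dashed line is 1.5-fold. Atf3 stays between -1.20 and -1.02, while Jun (-0.62 to -0.52) and Jund (-0.60 to -0.49) move across the line.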

How the data were processed

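RNA of AD and AI Neuro2a cells was hybridized to Affymetrix mouse gene arrays, 4 per phenotype and 1 per sample. The authors processed the arrays with Partek 6.5 and GCRMA, per the submitters' notes, and deposited log2 signals for 35556 transcript clusters, which were analysed as deposited. The methods name other normalizations too, which were not analysed here, and the genome build is not given in the sources used here. The depth of an array is not a count, so the number of arrays and the signal over background limit the precision.

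Clusters were named by the platform's annotation. Differences between the phenotypes were fitted per cluster by limma 3.58.1 (R 4.3.3) as a 2-group model with moderated variances, and p-values were adjusted by Benjamini-Hochberg across every cluster. Genes with more than 1 cluster were represented by the brightest. Exact tests, tables and plots used Python 3.11.15, scipy 1.17.1, pandas 2.3.3, numpy 2.4.6 and matplotlib 3.10.9. Simulated arrays with known changes served to test the fit. The genes, the 9 lists and the rules were chosen with earlier results of these data known. Named are all 9 AP-1 genes, up to 3 called genes per direction and list (with none called, that of lowest adjusted p), and the 3 profiles nearest to each called gene; genes outside these rules are marked as picked after their values were seen. The alternatives were other scalings, filters, variance models, thresholds and cluster choices, a replicate block, and leaving out each array. Promoter sequences are from RefSeq (GRCm38.p6). Protein blots and tumors were not analysed here.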

Additional observations from a re-analysis of the deposited data

Results flagged for a closer look

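Among 22 genes described by the rules for named genes, the 4 values of each phenotype were compared, which makes 44 groups, and 1 had an array far from the other 3 by Dixon's test. Mef2a, a factor that acts on the Jun promoter, in AD replicate 2 lay at 10.61 log2, against 10.73 to 10.74 log2 in the other AD arrays. Chance flags about 1 in 20 groups.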

How the results depend on the processing

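Atf3 was called under all 20 alternatives, with log2 ratios from -1.20 to -1.02. With the replicate block, 2 of the 9 AP-1 genes and 1352 clusters were called, and no call of the family changed; same-numbered arrays did not deviate together (correlations from -0.175 to 0.078), and with 4 pairs none correlated over 0.1. After median centring, 1 AP-1 gene was called because Jun had -0.52, with 0 zipper partners, 0 turnover genes and 2 immediate early genes; this scaling moved the median log2 ratio of all clusters from 0.00 to 0.08, and the cause was not tested. Quantile normalization brought Jund to -0.60 and called 3 AP-1 genes. Leaving out single arrays gave 1 to 3 AP-1 genes, 0 to 1 zipper partners and 2 to 4 immediate early genes, with Jun from -0.62 to -0.57, Jund from -0.59 to -0.52, Fos from -0.03 to 0.04 and Batf3 from -0.06 to 0.03. Fos turned to -0.02 with array weights, and Batf3 to 0.03 with quantile normalization, 0.06 with median centring and 0.01 with array weights. With no fold threshold, 6444 clusters were called, 4 AP-1 genes (Fosb at -0.25 and Jund at -0.56 added), 2 zipper partners, 9 MAP kinase genes, 6 phosphatases, 4 promoter factors, 3 turnover genes, 8 targets, 10 stress genes and 12 immediate early genes. With a fold of at least 2, 254 clusters were called, 1 AP-1 gene (Jun at -0.59 was lost), 1 target, 2 immediate early genes and 0 in the lists of zipper partners, phosphatases, turnover and stress genes. With 1 cluster per gene, 883 of 19938 were called. Of called clusters 64.5% were higher in AI cells as deposited and 47% after median centring. Fosl1 was left out by the filter on dim clusters. Fos, Fosl1 and Batf3 lay below the median signal of all arrays, which limits what their ratios can show.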
